A study of Mus musculus with 18 samples.

Results

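The lacrimal gland was compared between 3 pools from mice given testosterone and 3 pools from mice given placebo, which are 6 of the 18 arrays of the study. The members are all arrays whose labels name this gland, and all 10500 probes of the array were considered. Every mouse was an orchiectomised male of the BALB/c strain, so both groups lacked the testes as a source of androgen, and each carried a hormone pellet for 21 days. In the testosterone group the pellet released testosterone and in the placebo group it did not. Per the labels an array held RNA of 10 glands pooled from 5 animals, and the pools of a group, named A, B and C, came from separate animals, although those labels elsewhere put the number at 4 for each sex and experiment. The other 12 arrays held submandibular and meibomian glands under the same treatments. No intact male and no female was among the arrays, and cells were not separated, so a value is the mean of all cells of 5 animals.

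The lacrimal gland lies beside the eye and secretes the watery part of tears. Its acinar cells make water, salts and proteins such as lactoferrin and lactoperoxidase, ducts carry them off, contractile myoepithelial cells surround the acini, and plasma cells between them make the antibodies that the epithelium moves into tears. Testosterone binds the androgen receptor, which enters the nucleus and binds DNA as a dimer. In rodents the gland is known to differ between males and females, and androgen is known to be a main cause of that difference.

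Values are deposited intensities of probes on a linear scale with array medians from 0.933 to 0.952. Changes are differences of log2(intensity + 0.278), testosterone minus placebo, with their standard errors, and a probe was called where the adjusted p of limma with Benjamini-Hochberg adjustment over all tested probes was below 0.05. Of 10500 probes, 6440 were bright enough to be tested. Calls were made for 1812 of them (28.1%), 889 higher with testosterone (13.8% of the tested) and 923 lower (14.3%), while the median change of all tested probes was -0.04. At least 2-fold changes were more often rises, 379 against 246 falls, and at least 8-fold changes were 62 rises and 11 falls. The pools of both groups did not overlap for 43.2% of the tested probes and for 1797 of the 1812 called. The arrays themselves differed between treatments in their upper and lower ranges. Their highest values were 931, 751 and 597 in testosterone pools A, B and C, against 1042, 984 and 977 in the placebo pools, and the median change of the brightest 10% of probes was -0.20. At the lower end the 10th percentiles were 0.299, 0.258 and 0.211 in the testosterone pools against 0.316, 0.315 and 0.307 in the placebo pools. The dimmest 10% of tested probes had a median change of -0.12, with 7.14% called higher and 11.5% lower. Rank correlations between pools ran from 0.932 to 0.953 within testosterone, from 0.927 to 0.933 within placebo and from 0.888 to 0.906 between treatments.

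**Figure D1:**
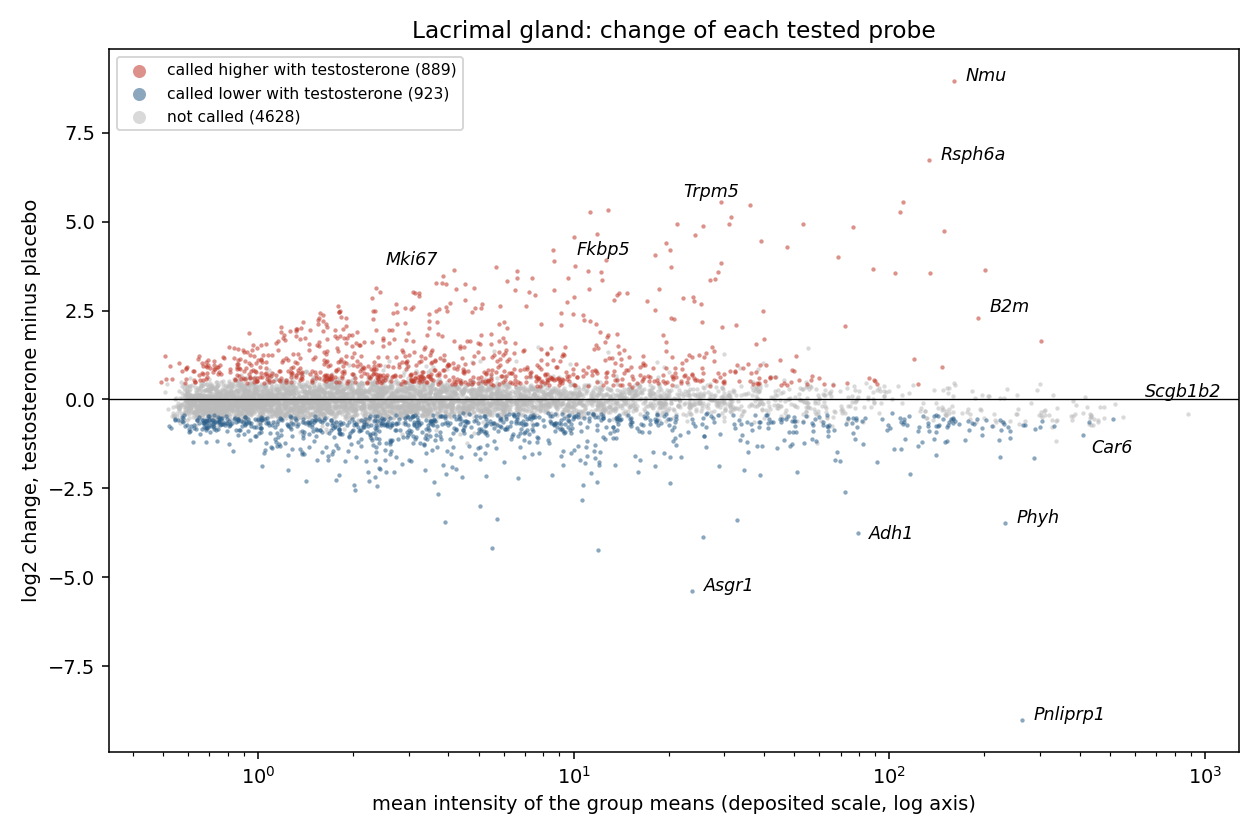
Log2 change (testosterone minus placebo, y) of the 6440 tested probes against the mean of the group means (x, deposited intensity, log axis), coloured by call, with 12 genes named. Nmu at 8.94 and Pnliprp1 at -9.02 lie farthest from 0, and Scgb1b2, the brightest, was not called.

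Salivary tissue lies close to this gland, and 1 pool of each treatment held its markers. The amylase Amy1, made by salivary acini, measured 7.82, 10.7 and 85.6 in testosterone pools A, B and C while the placebo pools in that order had 120, 1.97 and 4.47. The submandibular kallikrein Klk1b5 was high in the same pools, at 10.7 in testosterone pool C and 14.7 in placebo pool A, against 0.316 to 0.648 in the other 4. These levels compare with 240 to 427 for Amy1 and 462 to 743 for Klk1b5 on the submandibular arrays. Neither gene was called. Egf, the other submandibular duct marker, was not raised in testosterone pool C, with 3.64, 3.49 and 3.14 in testosterone pools A, B and C. In the placebo pools Egf had 4.92, 3.30 and 2.24, highest in pool A. Without testosterone pool C and placebo pool A 1271 probes were called, 629 higher and 642 lower.

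The products used as markers of lacrimal acinar cells were bright in both groups and mostly lower with testosterone. Lactoferrin (Ltf), carbonic anhydrase 6 (Car6), Dmbt1, the antibody transporter Pigr and the water channel Aqp5 lay at or above the 71.9th percentile of each lacrimal array. In the groups of both other glands Ltf averaged at most 8.04, Dmbt1 at most 1.17 and Pigr at most 15.7. Other markers were also bright in the submandibular gland. With testosterone and placebo there, Car6 averaged 494 and 509, Aqp5 19.5 and 23.02, and the secretoglobin Scgb1b2 448 and 451. These markers thus do not set lacrimal acini apart from that gland. Whether salivary tissue in a pool added to their values was not tested. Of 11 tested probes of the acinar marker list 0 were called higher and 6 lower (54.5%, beside 14.3% of all tested probes), with a median change of -0.75. The list is bright, with a median brightness percentile of 93.9. In the brightest 10% of probes 26.6% fell, with a median change of -0.20. After quantile normalization the list's median was -0.59, again with 6 falls. Without the pools with salivary markers 4 fell, with a median of -0.70. The brightest secreted product of the gland, the secretoglobin Scgb1b2, measured 931, 751 and 597 with testosterone and 1042, 984 and 977 with placebo. Its pools did not overlap, but the difference was not called (-0.42 ± 0.22, adjusted p = 0.189). Neither was that of lactoperoxidase, Lpo (369 ± 49.1 against 493 ± 35.2, SD, n = 3 each, -0.42 ± 0.18). Car6, a secreted enzyme that balances acid and bicarbonate, measured 345, 260 and 225 with testosterone and 536, 575 and 530 with placebo. It fell by 1.0 on the log2 scale (SE 0.20, adjusted p = 0.00383), with every testosterone pool below every placebo pool. In pooled tissue a smaller number of acinar cells and less RNA per acinar cell cannot be told apart.

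The fall was steepest for Dmbt1, a scavenger protein of mucosal fluids, at 4.44, 3.47 and 3.27 with testosterone against 24.04, 15.6 and 20.2 with placebo (-2.32 ± 0.18, adjusted p = 6.45e-06). Pigr carries dimeric IgA across the epithelium and measured 15.1, 31.5 and 44.3 with testosterone and 53.3, 55.7 and 77.6 with placebo (-1.14 ± 0.33, adjusted p = 0.0264). Ltf, which binds iron, measured 66.7, 37.6 and 40.5 with testosterone against 75.3, 79.0 and 83.9 with placebo (-0.76 ± 0.20, adjusted p = 0.0192). The pools of Pigr and of Ltf did not overlap between groups, though their testosterone pools were spread widely. Aqp5 had 23.3 ± 2.33 with testosterone and 27.5 ± 2.89 with placebo and was not called (adjusted p = 0.223). Bhlha15, a transcription factor of secretory cells, also was not called and had 7.23, 14.7 and 18.3 in testosterone pools A, B and C against 7.29, 14.6 and 17.9 in the placebo pools of the same letters. In the wider list of tear and saliva proteins 6 of 21 tested probes rose and 6 fell, with a median of 0.00. The rises included Smr2, a submaxillary gland androgen-regulated gene (9.99 ± 0.233 against 2.27 ± 0.403, 2.02 ± 0.15), the secretoglobin Scgb3a1 (1.72 ± 0.19), the membrane protein Prom2 (1.27 ± 0.20) and Azgp1, a zinc-binding lipid-mobilising glycoprotein (0.92 ± 0.19).

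The largest rise in the gland was that of Nmu, which encodes the signalling peptide neuromedin U. Its probe measured 414, 300 and 247 in testosterone pools A, B and C, against 0.407, 0.326 and 0.344 in the placebo pools. The placebo values lay below the array medians and the testosterone values among the brightest of the array, from the 99.7th percentile up. The change was 8.94 ± 0.18 (adjusted p = 1.74e-09), a ratio of means of 892 whose size depends on placebo values near the floor of the array. On the submandibular arrays the same probe measured 0.328, 0.300 and 0.237 with testosterone and 0.235, 0.230 and 0.265 with placebo. It carried a code for no value on 5 of the 6 meibomian arrays and measured 22.3 on the remaining array, testosterone pool C. Its change was therefore not compared between glands by a test.

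Rsph6a, a radial spoke protein of cilia, followed at 308, 259 and 226 with testosterone and 1.83, 2.33 and 2.42 with placebo (6.74 ± 0.15, adjusted p = 2.15e-09). Ptch1, the receptor that holds hedgehog signalling off until the ligand binds, averaged 57.4 ± 6.99 with testosterone and 0.952 ± 0.0593 with placebo (5.55 ± 0.14, adjusted p = 2.95e-09). Cyp4a12a is a fatty acid hydroxylase known as androgen-dependent in mouse kidney and averaged 217 ± 13.0 with testosterone and 4.62 ± 1.87 with placebo (5.55 ± 0.26). None of these pools overlapped between groups, since the 15 largest rises were ranked only among called genes with separate pools. The taste cell channel Trpm5 (5.48 ± 0.12), Ddc, the decarboxylase that makes dopamine and serotonin (5.28 ± 0.17), the mitochondrial import protein Mtx1 (5.26 ± 0.19) and Rgs10, which shortens G protein signals (5.14 ± 0.15), came next. The remaining members of the 15 largest rises lay between 4.64 and 4.94. They were the odorant receptor gene Olfr140, the heparin-binding growth factor Mdk, the meiotic cohesin Stag3, the lymphocyte antigen family member Ly6f, the chromatin remodeller Arid1a, the sulfotransferase Chst2 and the cornified envelope gene Lce1l.

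Several rises added much signal to already visible genes. Chst2, which adds sulfate to N-acetylglucosamine, had 355, 286 and 222 with testosterone and 11.2, 12.7 and 7.67 with placebo (4.74 ± 0.22, adjusted p = 1.61e-07). The fatty acid transporter and acyl-CoA synthetase Slc27a2 had 315, 208 and 219 with testosterone against 22.4, 19.2 and 19.7 with placebo (3.56 ± 0.17). The uncharacterised gene 2310057J18Rik averaged 371 ± 92.2 with testosterone and 30.5 ± 11.9 with placebo (3.63 ± 0.27). All of these had every testosterone pool above every placebo pool. B2m, the invariant chain of MHC class I molecules, was also among the 6 largest gains in intensity and had 378, 314 and 261 with testosterone and 59.6, 58.0 and 75.8 with placebo (2.29 ± 0.18, adjusted p = 7.60e-06).

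The largest fall was that of Pnliprp1, a secreted relative of pancreatic lipase. It measured 0.362, 2.40 and 0.327 in testosterone pools A, B and C and 567, 516 and 490 in the placebo pools (-9.02 ± 0.46, adjusted p = 3.42e-07). Asgr1, a subunit of the asialoglycoprotein receptor, had 0.470, 2.99 and 0.290 with testosterone against 50.8, 41.5 and 46.5 with placebo (-5.38 ± 0.51, adjusted p = 3.11e-05). Pool B thus held the highest testosterone value of both genes, and for Asgr1 and Pnliprp1 the other testosterone pools were close to the floor of the arrays. Pllp, the membrane protein plasmolipin, had its lowest testosterone value in pool B instead, at 1.10, 0.256 and 2.22 in pools A, B and C against 24.8, 21.2 and 22.2 with placebo (-4.23 ± 0.43). Pnliprp1 belongs to a list of 14 tested pancreatic-type enzyme probes, of which 2 rose and 3 fell. The others that fell were the chymotrypsinogen Ctrb1 (-1.61) and the lipase cofactor colipase, Clps (-0.76), and the list's median was 0.18.

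The metabolic enzymes Phyh, Adh1 and Acy1 were also among the 15 largest falls. Phyh, which starts the breakdown of branched fatty acids in peroxisomes, had 33.9, 46.5 and 34.7 with testosterone and 427, 426 and 420 with placebo (-3.47 ± 0.16, adjusted p = 1.61e-07). Adh1, the alcohol and retinol dehydrogenase, had 13.0, 9.29 and 9.70 with testosterone against 116, 163 and 165 with placebo (-3.76 ± 0.18, adjusted p = 2.19e-07). The aminoacylase Acy1 averaged 3.12 ± 0.754 with testosterone and 48.2 ± 0.781 with placebo (-3.86 ± 0.16). In these genes the pools of a group were close together and the groups far apart. The adhesion protein Tenm3, the clathrin adaptor Snap91, the zinc finger gene Zik1, the galactosyltransferase B4galt1, the macrophage product Retnla, Mfap3l, the histone gene H4c9, Tmem35a and Pkdrej made up the rest of the 15 largest falls, between -4.17 and -2.41. Mfap3l had a further probe, which fell by 1.37. Bright genes with large losses in intensity were the annexin Anxa8 (139 ± 25.8 against 437 ± 38.4, -1.66 ± 0.18), the haemoglobin-binding protein Hp (109 ± 14.2 against 339 ± 37.7, -1.63 ± 0.17) and the elongation factor Eef1a1 (415 ± 61.0 against 607 ± 30.9, -0.56 ± 0.18, adjusted p = 0.0465). Probes of near-identical gene copies, such as those of histones, cytochromes P450, amylases and ribosomal proteins, may bind RNA of more than 1 copy.

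**Figure D2:**
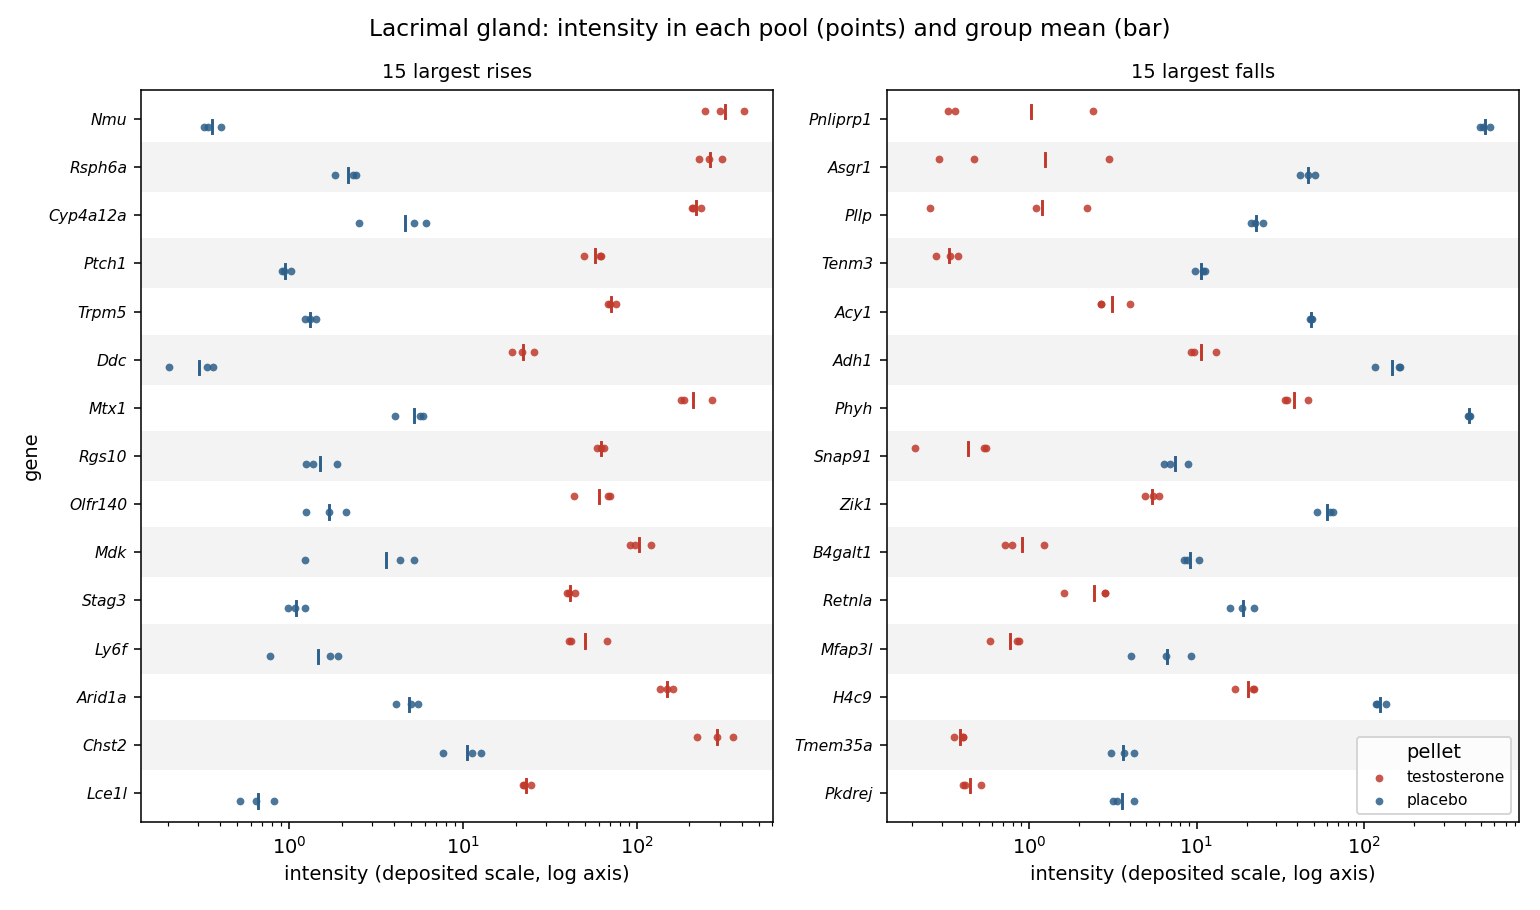
Intensity in each pool (x, deposited scale, log axis) of the 15 genes with the largest rises (left) and falls (right), testosterone above placebo in each row, with a bar at each group mean. Only called genes with separate groups were ranked, so the groups are apart in every row by selection. The testosterone pools of Pnliprp1, Asgr1 and Pllp are spread most.

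Genes known as direct androgen targets in other organs gave a mixed picture. Fkbp5, a co-chaperone of steroid receptors that androgen induces in several tissues, had 20.7, 16.9 and 24.6 with testosterone and 1.30, 1.62 and 1.35 with placebo. It rose by 3.62 ± 0.16 (adjusted p = 1.58e-07), with no overlap of pools. Of 18 tested probes of the list of androgen-responsive genes 3 rose (16.7%, near the 13.8% of all tested probes) and 5 fell (27.8%, beside 14.3%). The median was 0.00. Odc1, the first enzyme of polyamine synthesis, rose by 0.73, as did Azgp1 by 0.92. Homer2, a scaffold of calcium signalling, fell by 1.62 ± 0.14 (3.27 ± 0.403 with testosterone against 10.6 ± 1.01 with placebo), and Acsl3, the kinase Sgk1, Cebpd and Gusb fell by 0.70 to 0.92. Probes for the androgen receptor and for 5-alpha reductase 1 were not analysed here. Among 13 tested enzymes of steroid metabolism 4 rose (30.8%) and 3 fell (23.1%), beside 13.8% and 14.3% of all tested probes. Of these 13, 2 exceeded the brightness limit for testing in testosterone pools only. Without that limit 4 of 29 rose and 3 fell. Without the 2 pools with salivary markers 2 rose and 2 fell. The oestrogen sulfotransferase Sult1e1 (1.25), Hsd17b12 (0.98), Hsd17b11 (0.96) and Hsd17b1 (0.60) were higher, and Akr1c18 (-0.80), Akr1c20 (-0.68) and Hsd17b4 (-0.48) were lower.

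The androgen receptor binds hexamers written AGAACA on one strand and TGTTCT on the other, and a full site has AGAACA, a gap of 3 bases and TGTTCT. RefSeq promoters (GRCm38.p6, 250 bases before to 50 after the start) were searched on both strands. They matched by symbol for 4555 of 5597 tested genes. The single hexamer stood in 15.3% of 642 promoters of genes called higher, 16.1% of 640 called lower, 15.2% of the tested genes and 21.3% of 27025 genes with a promoter. The full site, in 0.0111% of all, occurred in 1 tested gene, Sgk1. It is printed here because it was the one full match, from the plus strand at chr10:21993691-21993725 with both hexamers in capitals.
Sgk1: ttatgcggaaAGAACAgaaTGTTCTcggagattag
Sgk1 was lower with testosterone, at 0.753, 0.490 and 0.765 against 1.17, 1.46 and 1.44 with placebo (-0.80 ± 0.18, adjusted p = 0.00804). A match is a description of letters in this window and shows no binding.

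The cell division genes were mostly higher with testosterone. Mki67, the nuclear protein used to mark dividing cells, had 9.54, 6.37 and 6.07 with testosterone and 0.406, 0.418 and 0.377 with placebo (3.46 ± 0.19, adjusted p = 6.07e-07). Cdk1, the kinase that starts mitosis, had 10.2, 6.31 and 5.51 with testosterone and 0.679, 0.438 and 0.416 with placebo (3.24 ± 0.24, adjusted p = 4.55e-06). The groups did not overlap for either gene, and testosterone pool A was the highest of its group in both. The list had 100 probes on the array and 70 were tested, of which 47 rose, 1 fell and 22 were not called, with a median change of 0.94. Since 18 of the 70 exceeded the brightness limit in testosterone pools only, these members could be tested because they were high there. Without that limit 43 of 99 members rose and 1 fell, with a median of 0.50, beside 807 rises and 869 falls over 10453 probes.

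The rise covered the steps of the cycle. For DNA precursors, Tyms (15.7 ± 1.80 against 1.59 ± 0.132, 3.09 ± 0.14), Rrm2 (1.79), which makes deoxynucleotides, and thymidine kinase, Tk1 (1.93), were higher. The replication helicase members Cdc45 (7.81 ± 2.50 against 0.656 ± 0.211, 3.10 ± 0.24), Mcm5 (1.65), Mcm7 (1.24), Mcm3 (1.22), Mcm4 (0.86) and Mcm6 (0.72) rose, as did the sliding clamp Pcna (32.8 ± 4.51 against 13.5 ± 1.19, 1.26 ± 0.14). Of the mitotic cyclins, Ccnb2 had 4.50, 1.73 and 1.93 with testosterone and 0.422, 0.419 and 0.259 with placebo (2.11 ± 0.30, adjusted p = 0.000497), and Ccna2 rose by 1.53. Birc5 (2.98) and Cenpa (1.82), which act at the centromere, the spindle proteins Kif11 (1.95), Hmmr (2.08) and Tpx2 (1.46), and the checkpoint proteins Ttk (0.57) and Bub1b (0.56) were also higher. The exception was the origin recognition subunit Orc1, which had 1.22, 1.19 and 0.889 with testosterone against 4.50, 5.53 and 3.73 with placebo (-1.81 ± 0.19, adjusted p = 5.12e-05). The kinase Cdk4, which acts before DNA synthesis, had 4.41 with testosterone and 6.98 with placebo and was not called. These members were picked from the list after their values were seen. Inhibitors of the cycle were among the calls too. Of 20 tested probes of growth arrest genes 7 rose (35%) and 3 fell (15%), beside 13.8% and 14.3% of all tested probes. Of these 20, 2 exceeded the brightness limit in testosterone pools only, and without that limit 6 of 26 rose and 4 fell. The pocket proteins Rbl1 (2.50 ± 0.18) and Rb1 (2.12 ± 0.18) and the stress proteins Gadd45g (1.63) and Gadd45a (1.22) were higher and Gas6 (-1.58) lower.

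Many promoters of mitotic genes are known to hold CCAAT boxes and a cell cycle element read as TTTGAA or TTCGAA. Both motifs, searched on both strands with overlapping matches counted for each, stood together in 42.4% of 59 promoters of tested members of the list, against 7.07% of the promoters of all tested genes and 8.61% of all promoters. CCAAT alone stood in 76.3% of the 59 and in 43.1% of the tested genes. Among all 642 promoters of genes called higher the pair was at 10.3%. Shown are the 150 bases before the start, on the minus strand of GRCm38.p6 as RefSeq gives it, of 4 members with large rises. The sites are chr7:135716380-135716529 for Mki67, chr10:69352913-69353062 for Cdk1, chr9:70421555-70421704 for Ccnb2 and chr4:118437344-118437493 for Cdc20, which activates the ligase that ends mitosis. Capitals mark CCAAT (or ATTGG, its other strand) and TTTGAA or TTCGAA.
Mki67: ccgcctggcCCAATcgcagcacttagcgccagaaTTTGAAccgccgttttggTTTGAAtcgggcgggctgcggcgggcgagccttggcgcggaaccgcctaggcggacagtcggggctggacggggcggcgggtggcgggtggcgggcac
Cdk1: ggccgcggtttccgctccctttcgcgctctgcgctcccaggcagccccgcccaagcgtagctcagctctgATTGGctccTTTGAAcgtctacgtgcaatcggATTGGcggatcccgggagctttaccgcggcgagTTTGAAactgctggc
Ccnb2: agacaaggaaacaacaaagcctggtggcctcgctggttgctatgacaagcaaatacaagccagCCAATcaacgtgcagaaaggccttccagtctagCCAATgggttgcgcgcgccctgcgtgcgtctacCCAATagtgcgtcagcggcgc
Cdc20: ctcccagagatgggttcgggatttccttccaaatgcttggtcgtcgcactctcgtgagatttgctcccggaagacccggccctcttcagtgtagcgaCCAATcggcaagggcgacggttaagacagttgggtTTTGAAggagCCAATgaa
Ccnb2 held 3 CCAAT matches and no TTTGAA or TTCGAA in this stretch, and the others held both motifs. Cdc20 had 3.68, 3.07 and 3.10 with testosterone and 0.437, 0.259 and 0.388 with placebo (2.48 ± 0.17, adjusted p = 3.18e-06).

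**Figure D3:**
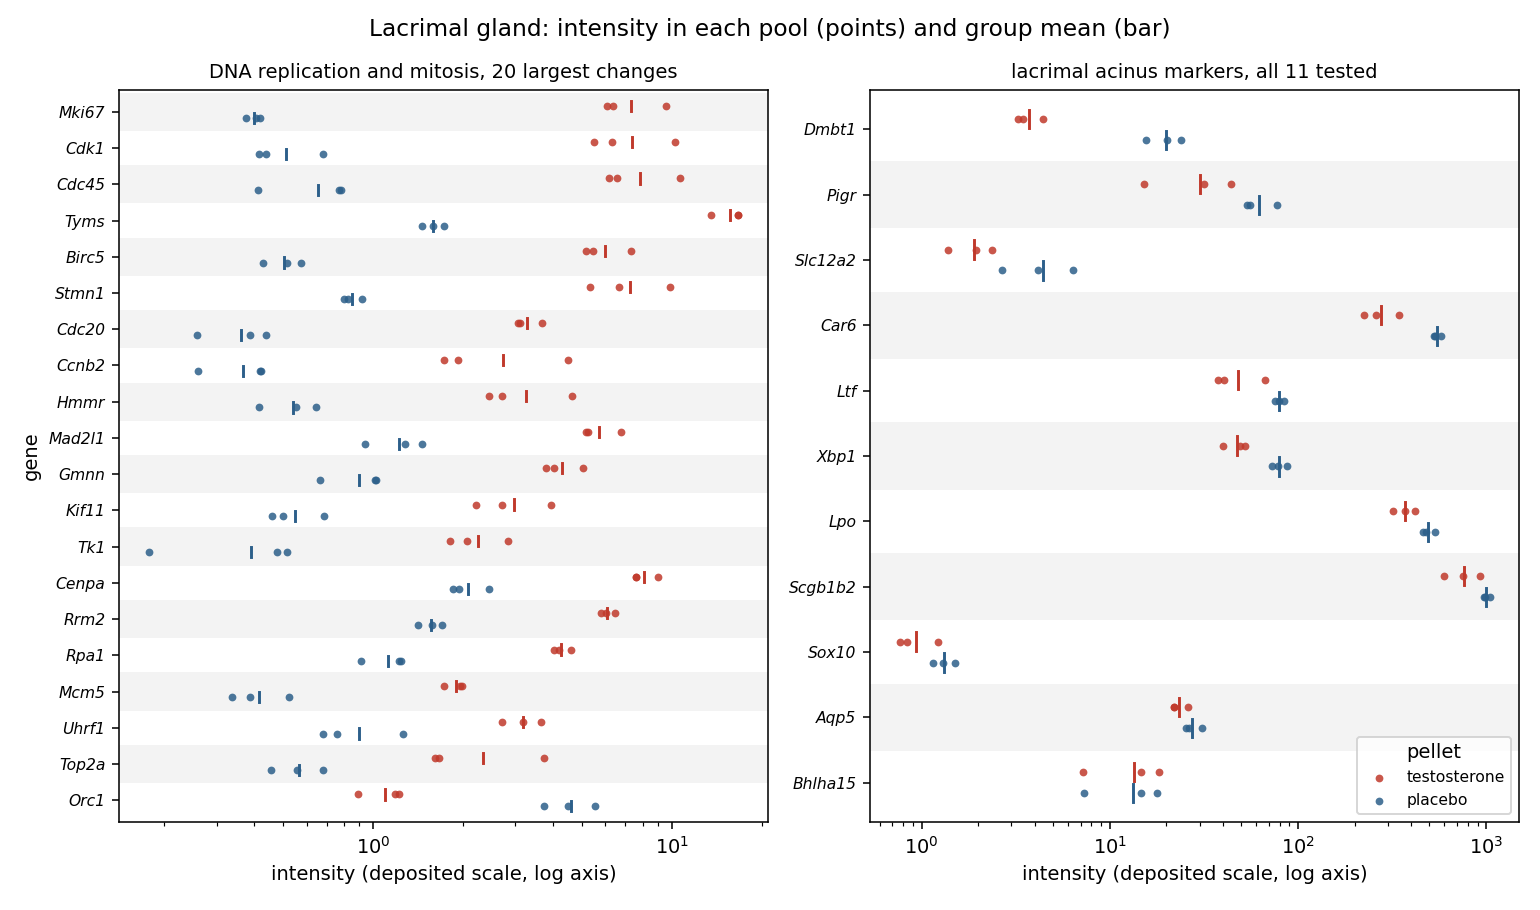
Intensity in each pool (x, deposited scale, log axis), testosterone above placebo in each row and a bar at each mean, for the 20 largest changes among DNA replication and mitosis genes (left) and the 11 tested acinar markers (right). Orc1 is the one gene on the left that was lower with testosterone, and Bhlha15 on the right has nearly equal means of 13.4 and 13.3.

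Most ribosomal protein genes were lower. Rpl26, a large-subunit protein, had 10.1, 10.6 and 8.54 with testosterone and 30.2, 31.4 and 30.1 with placebo, with no overlap (-1.63 ± 0.12, adjusted p = 6.18e-06). Rpl37 averaged 170 ± 26.1 with testosterone and 313 ± 13.4 with placebo (-0.89 ± 0.17). Of 58 tested cytosolic ribosomal protein probes 42 fell and 2 rose, with a median of -0.59. The 2 that rose were Rpl8 (72.7 ± 14.2 against 47.2 ± 3.98, 0.60 ± 0.16) and the germ cell variant Rpl39l (0.49 ± 0.15). Most of these genes lie in the brightest 10% of probes, where 26.6% of all probes fell and 13.8% rose, and after quantile normalization the list's median was -0.33 with 29 falls. Leaving out single pools lowered the 42 falls to 21 without placebo pool B and to 23 without testosterone pool B, and 23 falls were called without the 2 pools with salivary markers. None of 46 translation factors and tRNA synthetases rose, 9 fell (19.6%) and 37 were not called, a share of falls near the 16.8% and 26.6% of all probes in the upper brightness classes. Among those that fell were Eef1a2 (-1.34), Pabpc1 (-1.20), which binds poly(A) tails, Eif4ebp2 (-0.87), Eif3i (-0.65) and Eif3f (-0.62). Of 25 genes of ribosome assembly 0 rose and 5 fell, with the nucleolar helicase Ddx21 (-1.09) and the RNA polymerase I subunit Polr1e (-0.85) the lowest, and the list's median was -0.38.

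Regulators of gland identity were lower or not called. Of 36 tested transcription factors of glands and acini none rose and 10 fell (27.8%, beside 14.3% of all tested probes), with a median of -0.30. Foxa2, which acts in many secretory epithelia, averaged 1.46 ± 0.193 with testosterone and 3.78 ± 1.03 with placebo (-1.20 ± 0.20, adjusted p = 0.00132). Tfap2b (-0.89), Foxc2 (-0.84), the stress-response factor Atf4 (-0.76) and Xbp1, which expands the secretory apparatus (47.2 ± 6.30 against 79.6 ± 7.51, -0.75 ± 0.15, adjusted p = 0.00367), followed. Of 59 tested probes of protein folding in the endoplasmic reticulum 9 rose (15.3%, near the 13.8% of all tested probes) and 5 fell (8.47%). The cargo lectin Lman2 (1.49), the prolyl isomerase Fkbp11 (1.18), the oxidase Ero1a (0.85), the ubiquitin ligase Syvn1 (0.84) and the lectin chaperone calreticulin, Calr (0.73), rose, while both tested probes of its membrane-bound relative calnexin, Canx, fell (-0.76 and -0.72). In vesicle trafficking 7 of 84 probes rose (8.33%) and 9 fell (10.7%), below the 13.8% and 14.3% of all tested probes. The clathrin adaptor subunit Ap2b1 had 42.3, 36.7 and 35.3 with testosterone and 2.20, 3.16 and 2.55 with placebo (3.73 ± 0.15), and the Golgi GTPase Rab33b (2.87) and the SNARE Vamp2 (1.26) rose, whereas Snap91 (-3.46) and Rab17 (-1.57) fell.

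Of 34 tested glycosyltransferases and sulfotransferases, which build sugar chains, 8 rose (23.5%) and 3 fell (8.82%), beside 13.8% and 14.3% of all tested probes. Of these 34, 2 exceeded the brightness limit in testosterone pools only, so these could be tested because they were high there. Without that limit 8 of 66 rose and 4 fell, with a median of -0.07, against 0.17 for the 34. Besides Chst2, the core fucosyltransferase Fut8 (8.39 ± 2.11 against 0.630 ± 0.178, 3.25 ± 0.21), the lactosylceramide synthase B4galt6 (3.14 ± 0.16) and the sialyltransferase St6galnac2 (26.5 ± 4.89 against 3.07 ± 0.469, 2.99 ± 0.16) rose. B4galt1, which adds galactose to N-glycans, had 0.716, 1.23 and 0.793 with testosterone against 10.3, 8.78 and 8.45 with placebo (-3.01 ± 0.19, adjusted p = 1.40e-06). In these 5 genes no pool of one group reached the range of the other. Of 40 lysosomal probes 14 fell (35%) and 3 rose (7.5%), with a median of -0.36. The sulfatase Arsa (-1.75) and the protease Ctsh (-1.28) fell most, and the sulfatase Galns (1.59) and Dnase2a (0.99) rose.

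Of 34 probes for water and electrolyte secretion 6 rose (17.6%) and 8 fell (23.5%), beside 13.8% and 14.3% of all tested probes. Without the 2 pools with salivary markers 3 rose and 4 fell. Kcnma1, the large-conductance potassium channel of secretory cells, fell on both probes (-1.71 and -1.02), the sodium-potassium-chloride cotransporter Slc12a2 fell by 1.05 ± 0.28, and the pump subunit Atp1b3 by 1.34. The mitochondrial carbonic anhydrase Car5b rose, with 15.6 ± 1.39 against 2.72 ± 0.772 (2.44 ± 0.20). Among 48 probes of secretagogue receptors and calcium signals 6 rose and 6 fell (12.5% each, near the shares of all probes), with Rgs10 and the kinase Camk2d (1.06) higher and Rgs2 (-1.18) and Prkca (-0.96) lower. The muscarinic receptor gene Chrm3 was too dim to be tested, at 0.347 to 0.486 with testosterone and 0.353 to 0.633 with placebo. Smooth muscle and myoepithelial genes were mostly lower, 6 of 8 (75%) with 1 rise and a median of -0.90, beside 14.3% falls over all tested probes. They included the myosin Myh11 (1.88 ± 0.544 against 4.83 ± 1.04, -1.25 ± 0.21), the actin Acta2 (-1.10), calponin, Cnn1 (-1.13), and Trp63, a factor of basal and myoepithelial cells (-1.20). The summed level of these 8 probes was 18.01 to 19.7 with testosterone and 29.7 to 35.1 with placebo. Of the 8, 2 exceeded the brightness limit in placebo pools only, so these could be tested because they were high there. Without that limit 0 of 12 rose and 6 fell, with a median of -0.53. In the extracellular matrix list 3 of 41 rose (7.32%) and 11 fell (26.8%), beside 13.8% and 14.3% of all tested probes. Periostin, Postn (-1.08), and the matrix protein Mgp (-1.14) were lower and collagen XVII, Col17a1 (0.90), higher.

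Lipid and detoxification genes changed in both directions. Of 37 probes of fatty acid and glycerolipid synthesis 10 rose (27.0%) and 5 fell (13.5%), with a median of 0.19. The acyl-CoA synthetase Acsbg1 had 18.2, 12.8 and 18.2 with testosterone and 1.31, 0.481 and 0.324 with placebo (4.20 ± 0.31), and the phosphatidate phosphatase Lpin3 (2.01), the lipogenic regulator Thrsp (1.82), Cidea (1.73) and the desaturase Scd1 (1.35) rose. The lipid droplet coat Plin2 fell by 1.54 and lipoprotein lipase, Lpl, by 1.15. The fatty acid synthase Fasn had 20.3, 2.97 and 13.2 with testosterone and 4.03, 2.71 and 2.93 with placebo. Testosterone pool B overlapped the placebo range, and the gene was not called (1.48 ± 0.53, adjusted p = 0.0639). Fatty acid oxidation showed 2 rises (4.76%) and 9 falls (21.4%) among 42, with Phyh, the thioesterase Acot1 (-2.0) and Crot (-1.29) the lowest and Acaa2 (1.10) higher. Cytochromes P450 and detoxifying enzymes had 15 rises (23.4%) and 17 falls (26.6%) among 64, beside 13.8% and 14.3% of all tested probes. Cyp4a12a, Cyp3a13 (3.62) and Fmo5 (2.47) rose, and Adh1, Ces1d (-2.03) and the glutathione transferases Gstm1 (-1.59) and Gsta3 (-1.48) fell. The adipocyte marker list, which includes Lpl, had falls and no rise. Of its 6 tested probes 3 fell, its summed level was 8.66 to 13.5 with testosterone and 18.4 to 22.1 with placebo, and its defining marker Adipoq averaged 1.18 against 2.10 without a call. The Harderian and sebaceous list, which includes Acsbg1, Cidea, Scd1 and Plin2, had 4 rises and 2 falls of 10. Its summed level was 59.8 to 71.4 against 34.3 to 44.7. The defining marker Elovl3 of that list stayed dim, at 0.465 to 0.699 with testosterone and 0.384 to 0.508 with placebo. Their part in the lipid result was not tested.

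Immune genes moved both ways. Of 25 chemokine and receptor probes 7 rose (28%) and 6 fell (24%), beside 13.8% and 14.3% of all tested probes. Ccl28, an epithelial chemokine that attracts IgA plasma cells, had 38.3, 39.7 and 43.0 with testosterone and 11.9, 15.01 and 16.7 with placebo (1.46 ± 0.14, adjusted p = 4.03e-05), and the receptors Ccr1 (2.37) and Cxcr4 (1.75) and the chemokine Ccl8 (1.56) were higher. Ccl4 had 29.3, 34.7 and 32.0 with testosterone against 101, 112 and 108 with placebo (-1.73 ± 0.13), and the platelet chemokine Pf4 averaged 44.2 ± 11.7 with testosterone and 188 ± 14.1 with placebo (-2.11 ± 0.18). Ccl28 was named after its value was seen. Cytokine genes gave 9 rises (22.5%) and 2 falls (5%) among 40, led by Il3 (54.7 ± 13.6 against 3.64 ± 1.26, 3.84 ± 0.24) and the shared receptor chain Csf2rb (2.58). Of these 40, 2 exceeded the brightness limit in testosterone pools only and 2 in placebo pools only. Without that limit 9 of 76 rose and 4 fell, with a median of -0.08. Of 14 T and NK cell probes 4 rose (28.6%) and 1 fell (7.14%), and without the brightness limit 4 of 33 rose and 1 fell. The regulatory T cell factor Foxp3 rose by 3.10 ± 0.17, while the T cell receptor chains Cd3e and Cd3g were too dim to be tested and averaged 0.400 (over 2 pools with a value) and 0.296 with testosterone, against 0.490 and 0.290 with placebo.

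Of 34 tested probes of the interferon list 10 fell (29.4%), 3 rose (8.82%) and 21 were not called, with a median of -0.37. Over all tested probes 14.3% fell and 13.8% rose. Without the 2 pools with salivary markers 6 fell and 3 rose. The rises were Ly6f (4.88), the transcription factor Irf5 (8.91 ± 0.938 against 0.769 ± 0.198, 3.15 ± 0.18) and the nuclease Isg20 (2.80 ± 0.14). The falls were smaller, from -0.98 for the GTPase Ifi47 to -0.53, with Ifit3 at -0.87 and Irf7 at -0.77. MHC class I and antigen processing likewise held the rises of B2m and Calr beside 5 falls and a list median of -0.34 over 18 probes. Of 15 plasma cell and lymphoid markers on the array 4 were bright enough to be tested and 3 of these rose. Over all 15 without the brightness limit 1 rose and 1 fell, with a median of -0.05, and as few as 1 of the 4 rose over the alternative fits. The 3 were the B cell coactivator Pou2af1 (6.94 ± 0.789 against 0.923 ± 0.231, 2.60 ± 0.18), the antigen receptor chain Cd79a (47.6 against 33.3, 0.51, adjusted p = 0.0352) and the antibody joining chain Jchain (0.45, adjusted p = 0.0369). The summed level of the 4 probes was 98.9 to 110 with testosterone and 67.8 to 76.2 with placebo, and Cd79b, another defining marker, stayed dim at 0.438 with testosterone and 0.640 with placebo on average. The part of lymphoid cells in the immune results was not tested.

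In the Wnt, BMP, Notch and hedgehog list 12 of 56 tested probes rose (21.4%) and 7 fell (12.5%), beside 13.8% and 14.3% of all tested probes. Of these 56, 3 exceeded the brightness limit in testosterone pools only, and without that limit 12 of 112 rose and 8 fell. Beside Ptch1, the rises included the ligand Bmp6 (3.03), its receptor Acvr2a (13.0 against 1.36, 3.02) and the antagonists follistatin, Fst (3.02), and chordin, Chrd (2.43). Gli1, a transcription factor and known target of the hedgehog pathway, was higher by 0.56, at 7.81 with testosterone and 5.21 with placebo. Among 26 germ cell and cilium genes 6 rose (23.1%) and 2 fell (7.69%). The rises of Rsph6a, Stag3 and the sperm protein Crisp2 (2.46) stood beside lower Ift20 (-1.23), a part of the transport machinery of cilia, and Hspa2 (-2.12). Of 25 chemosensory and amine genes 4 rose (16%, near the 13.8% of all probes) and none fell. They were Trpm5, Ddc, Olfr140 and chromogranin A, Chga (0.75), while the taste receptor Tas1r2 (1.61 against 1.31) and the tuft cell protein Avil (1.55 against 1.29) were not called. Solute carriers had 24 rises (23.1%) and 16 falls (15.4%) among 104, led by Slc27a2, the inositol transporter Slc5a3 (2.60), Slc17a6 (2.29), Slc25a13 (2.20) and the urea transporter Slc14a1 (2.19).

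Markers of other tissues varied in level. The defining skeletal muscle markers Acta1, Ckm, Mylpf and Tnnc2 averaged between 0.278 and 0.597 in both groups, and 0 of 5 tested muscle probes and 0 of 7 nerve probes were called. Tnni1, a troponin of slow muscle, was brighter, at 9.39 with testosterone and 7.73 with placebo, and was not called. The nerve list summed to 12.1 to 13.1 with testosterone against 14.7 to 17.6 with placebo. Of 9 endothelial probes 1 rose, the chemokine-binding Ackr1 (1.23), and the defining markers Pecam1 and Cdh5 averaged at most 0.641. The haemoglobin chain Hba-a1 had 64.0, 49.0 and 67.2 with testosterone and 141, 196 and 136 with placebo (-1.38 ± 0.19, adjusted p = 0.00035). The erythroid list summed to 82.4 to 97.6 with testosterone and 160 to 219 with placebo, which is mostly this gene, since Alas2 averaged 9.06 against 5.60 and was not called. Its part in other results was not tested.

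**Figure D4:**
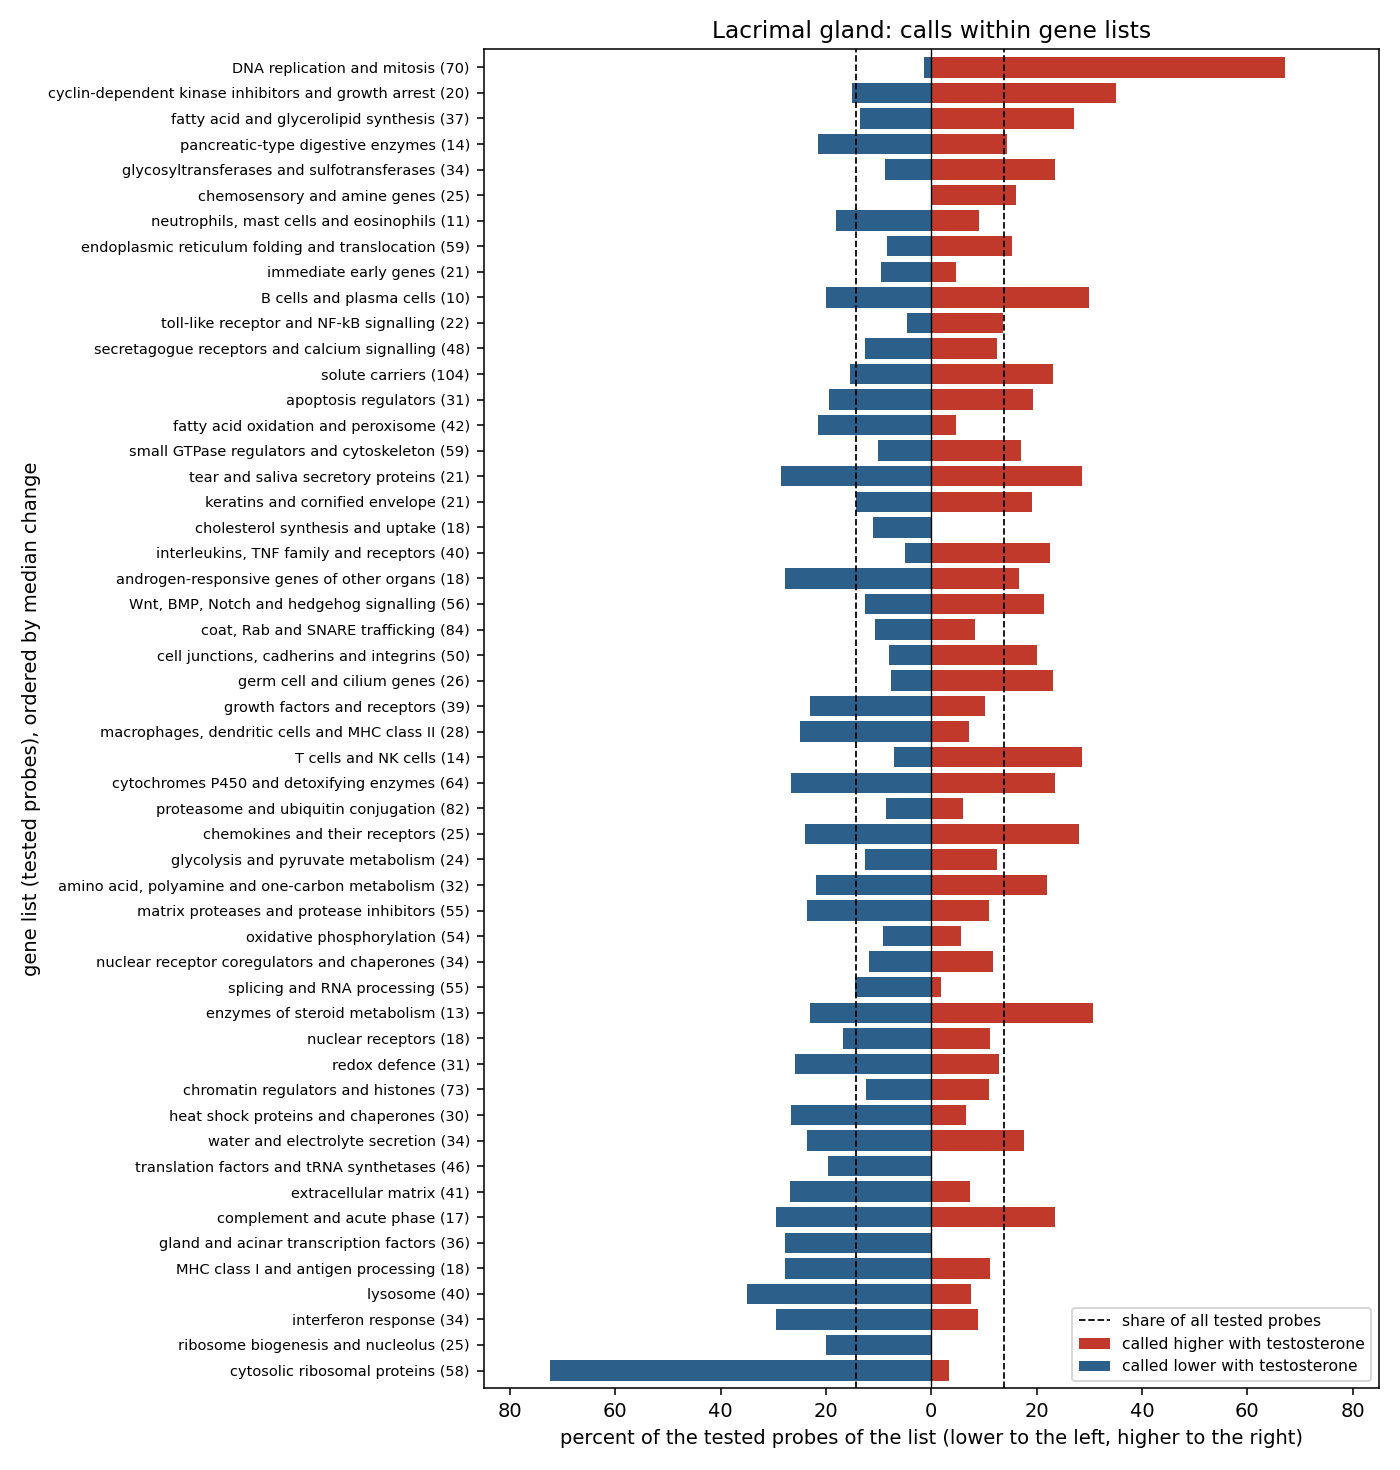
Percent of tested probes called higher (right) and lower (left) with testosterone in 52 gene lists of at least 10 tested probes (number in brackets), ordered by median change. Dashed lines mark the shares over all tested probes, 13.8% and 14.3%, which DNA replication and mitosis exceeds to the right and cytosolic ribosomal proteins to the left.

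To see where the lacrimal response differed from that of the other glands, differences between log2 changes were fitted over all 18 arrays for 6379 probes. The lacrimal change differed from the submandibular change for 1703 probes (26.7%) and from the meibomian change for 1350 (21.2%). Array ranges also differed, with meibomian maxima of 135 to 219, so the comparison includes a difference between arrays. Of the 30 largest lacrimal calls among the probes fitted over all 18 arrays, 29 differed from the submandibular and 30 from the meibomian gland. These 30 were picked for a large lacrimal change, and the same lacrimal arrays entered the differences. The counts of 29 and 30 were thus largely set by that choice and do not measure how far the response was limited to this gland. Rsph6a had 264 with testosterone and 2.19 with placebo in the lacrimal gland, but 3.84 ± 0.485 and 5.42 ± 0.320 in the submandibular gland, a difference of changes of 7.21 ± 0.23 (adjusted p = 4.68e-12). Pnliprp1 averaged 31.9 ± 0.502 with testosterone and 19.5 ± 19.8 with placebo in the submandibular gland, and its changes differed by -10.72 ± 1.28 (adjusted p = 1.03e-05). Mki67, at 1.30 ± 0.353 with testosterone and 1.19 ± 0.288 with placebo in the submandibular gland and 7.68 ± 0.840 and 9.62 ± 1.09 in the meibomian gland, differed by 3.36 ± 0.27 and 3.77 ± 0.27.

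Some lacrimal changes had a counterpart. Fkbp5 also rose in the submandibular gland, by 2.48 ± 0.28 (6.12 ± 1.35 against 0.951 ± 0.545), and its lacrimal change was the larger by 1.14 ± 0.40 (adjusted p = 0.0456). Mdk rose there by 3.54 ± 0.36 and the difference was not called (1.38 ± 0.52, adjusted p = 0.059). Slc27a2 rose there by 2.55 ± 0.22 and B2m by 0.996 ± 0.16, both by less than in the lacrimal gland (adjusted p = 0.0256 and 0.000551). Hp ran the other way. It fell in the lacrimal gland and rose by 1.21 ± 0.19 in the submandibular and 0.97 ± 0.19 in the meibomian gland (adjusted p of the differences 5.85e-07 and 1.79e-06). Calls in opposite directions in both glands, with the difference called, numbered 158 against the submandibular gland and 10 against the meibomian gland.

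**Figure D5:**
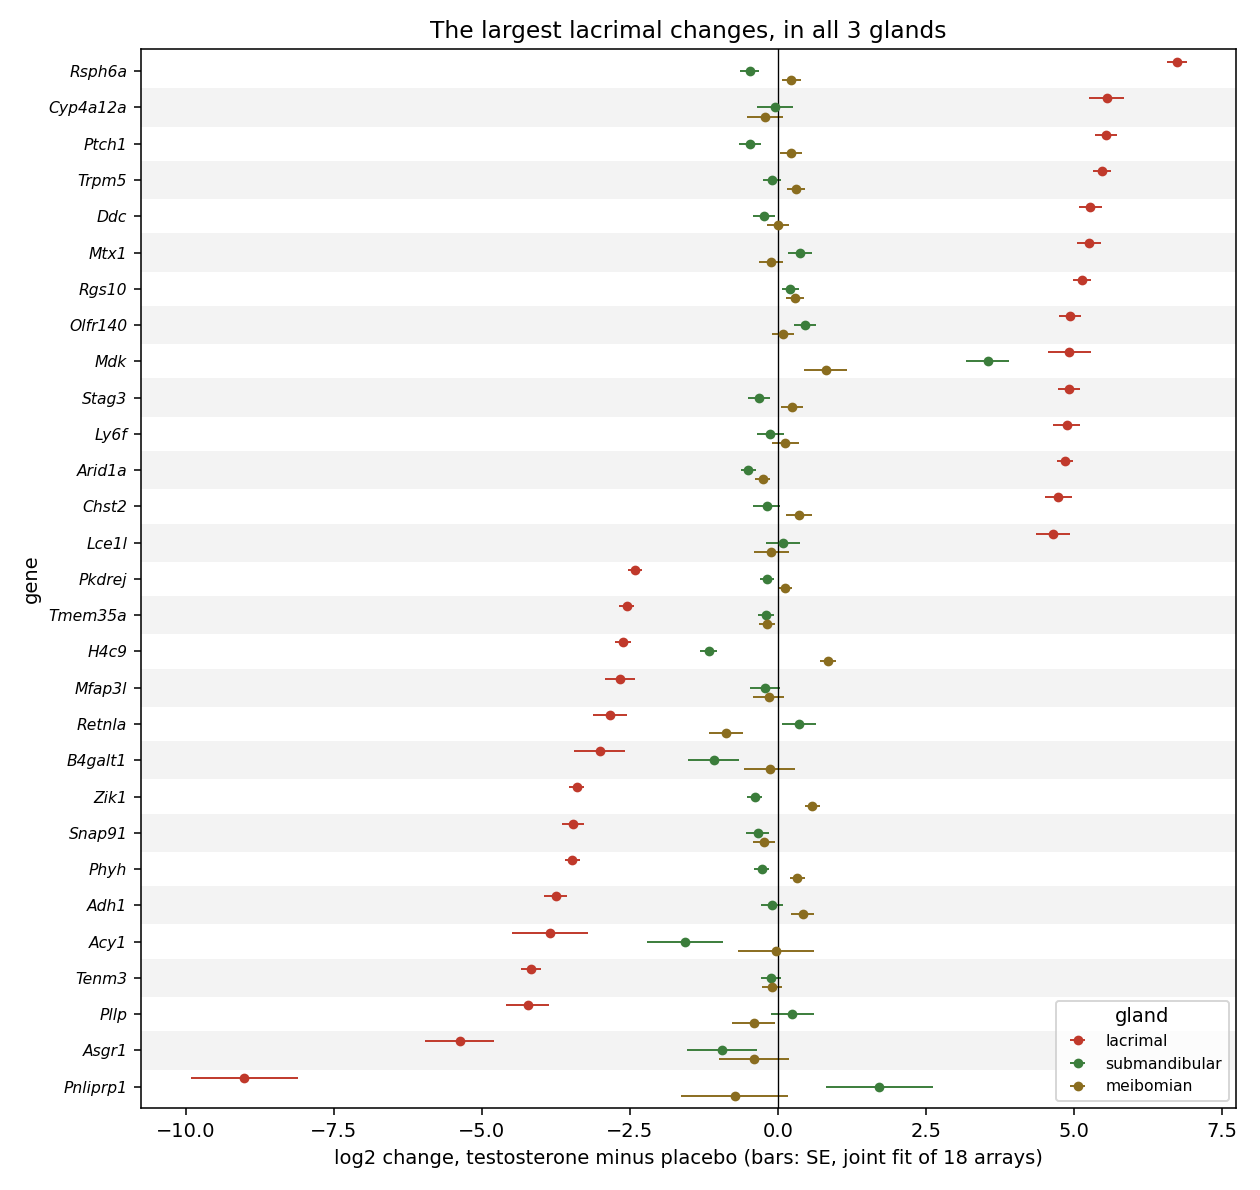
Log2 change (testosterone minus placebo, x, with SE) in lacrimal, submandibular and meibomian glands of the largest lacrimal rises and falls, 29 genes in the joint fit of 18 arrays. Mdk stands out with a submandibular change of 3.54, and Nmu is missing since most meibomian arrays had no value for it.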

How the data were processed

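RNA of pooled glands was measured on arrays, with 1 value per probe and array. The authors deposited intensity values on a linear scale, whose array medians are nearly equal. The array type, background correction and scaling are not given in the sources used here. Any value of -1 was read as no value, and other values below 0 were set to 0. Groups came from the sample titles. Log2 values had an offset of 0.278 added (the 10th percentile of positive lacrimal values) and probes were tested if above the 40th percentile on at least 3 of 6 arrays with at least 2 values per group, which left out 4013 dim probes and 47 with missing values. A limma model (version 3.58.1 under R 4.3.3) with eBayes, a trend and 4 residual degrees of freedom was fitted to the 6 arrays. It was also run on arrays simulated from the means and spreads of these probes. There it called 13.4% of log2 changes of 0.5, 76.1% of changes of 1 and 96.8% of changes of 2. A small change that was not called may therefore still be present. Differences between glands used all 18 arrays and 12 degrees of freedom. The number of arrays limits the precision, no detection call was used, and p-values reflect the spread between pools of animals.

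Gene symbols came from the platform annotation, which can be old: 8983 probes had 1 symbol, 1 had several and 1516 had none, and of the tested 5663 named 1 of 5597 genes. Of 64 genes with several tested probes, 25 had a call, 5 were called on all probes in 1 direction, and Mecom was called in both. Members and the 62 gene lists were chosen with earlier results of these data known. Lists are described by counts and medians, with no test of a list. Named genes were the 15 largest rises and falls among called probes with separate pools, up to 5 called members per list, the brightest genes, the 6 largest gains and losses of intensity, the 6 largest differences per other gland and a few genes always given where measured. Others were chosen after their values were seen. Alternatives were another offset, filter, normalization, variance model, threshold or treatment of -1, array weights, all arrays, pool letter as a block, and leaving out each array. Leaving out the 2 pools with salivary markers was added after seeing the data. Residuals of pools with the same letter correlated by 0.0646 to 0.0731, below the 0.1 set for pairing.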

Additional observations from a re-analysis of the deposited data

Results flagged for a closer look

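The changes below differed between the lacrimal gland and another gland in the joint limma fit of 18 arrays, as the largest such differences on the log2 scale (lacrimal change minus the other change). Against the submandibular gland they were -10.72 for Pnliprp1, 7.21 for Rsph6a, 6.02 for Ptch1, 5.61 for Cyp4a12a, 5.60 for the neural transcription factor Sox11 and 5.58 for Trpm5. Against the meibomian gland they were -8.28 for Pnliprp1, 6.51 for Rsph6a, 5.77 for Cyp4a12a, 5.37 for Mtx1, 5.33 for Ptch1 and 5.28 for Ddc. Sox11 had 66.4, 21.6 and 27.9 with testosterone and 1.42, 1.73 and 1.69 with placebo in the lacrimal gland, where testosterone pool A was far above the others. In the submandibular gland it fell to 1.72 ± 0.463 with testosterone, against 4.93 ± 0.228 with placebo (-1.41 ± 0.28, adjusted p = 0.00297). Cyp4a12a was bright in the meibomian gland under both treatments, at 29.2 ± 9.57 with testosterone and 32.9 ± 5.14 with placebo. Groups of 3 pools were not searched for single outlying pools.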

How the results depend on the processing

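Of 1812 calls, an adjusted p of 0.01 left 1033 (558 higher, 475 lower) and a 2-fold minimum left 625 (379 and 246). Over the fits that left out arrays the count ran from 1248 to 1898, with 629 to 868 higher and 603 to 1030 lower, the lowest count of falls coming without placebo pool B. Array weights gave 2493. With pool letter as a replicate block, which the design does not support, limma called 1810 probes, and each testosterone pool's residuals correlated best with the placebo pool of its letter, as a hint from the data. No called probe changed sign in these fits, except 4 where the code -1 was counted as 0. Of 269 named called probes 217 were called in every alternative fit and 52 lost the call in at least 1, 27 of them in fits without an array only. Siglecf, not called at -0.05, read 0.37 (adjusted p = 0.0457) after quantile normalization. The cause was not tested. Differences from the other glands stayed within 1.5 times their counts. Dim probes limit the size of folds: values of Nmu with placebo and Pnliprp1 with testosterone lie near the floor of the arrays.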

Other observations

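Among the 12 brightest tested genes, 9 were not called. One of these, 1700028I16Rik, had 405, 52.2 and 302 in testosterone pools A, B and C and 435, 444 and 381 in the placebo pools, so its change of -1.17 ± 0.60 rests on pool B. Natd1, by contrast, was highest in testosterone pool B, at 526, 647 and 335 against 566, 521 and 505 with placebo. Of the others, Vgll1 averaged 432 ± 65.0 with testosterone and 500 ± 3.82 with placebo, and Sema4g 378 ± 135 with testosterone and 402 ± 9.22 with placebo, so the testosterone pools of these bright genes were spread more than the placebo pools.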
